A study of Rattus norvegicus with 12 samples.

Results

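The interferon response genes described here are IRF1, IRF7, IRF9, STAT2, MX1, MX2, IFIT2, IFIT3 and ISG15, taken by symbol from the liver RNA table of a rat partial hepatectomy (PH) study. Of these 9 symbols, 8 were among the 14692 genes listed, and all 8 were among the 8459 genes whose mean reached 1 RPKM (read counts corrected for transcript length and library size) and which were tested. ISG15 was not found under that name. Its older symbol G1P2 was, by the synonyms in RefSeq, and G1P2 is shown beside the 8 genes but not counted with them.

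Whole liver was taken from male Sprague Dawley rats, 4 to 5 months old, at 0, 4, 12 and 24 h after PH in 3 arms. All rats, Control included, carried a duodenal catheter with a continuous saline infusion, and the abdominal surgery that created the fistula or its sham preceded PH by 24 h. Control rats had a sham biliary fistula, and the rats of the other arms, titled BF and BA, had a biliary fistula that drains bile out of the body. In the first or the second of these arms sodium taurocholate, a bile acid, was given into the duodenum from 12 h before PH. The titles and the sample descriptions disagree on which: by the study's text BF is the fistula alone and BA the fistula with infusion, whereas the descriptions give the infusion to the samples titled BF. The arms are therefore called here by their titles. CYP7A1, the rate-limiting enzyme of bile acid synthesis, is known to be repressed when bile acids reach the intestine. It was at 387 RPKM in BF at 0 h, 60.0 RPKM in Control and 54.9 RPKM in BA. BF was also above BA at 4 h (13.8 against 1.81 RPKM), at 12 h (136 against 3.17 RPKM) and at 24 h (334 against 68.8 RPKM), so that the arm titled BF had the higher level of this gene at all 4 times. In the study's text Cyp7a was elevated in rats after 24 h of fistula, and duodenal taurocholate reversed this. Read by their titles, BF and BA follow that order.

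Each of the 12 columns is the authors' combination of 2 sequencing runs, the first on 1 rat and the second on the combined RNA of 3 rats, which puts 4 rats behind a column but leaves no spread between rats to be computed. The number of reads per library is unknown. ALB, which encodes albumin, took 30.9% of the BA 4 h column against 5.60% to 13.4% of the others, and the median gene tested was lowest in that column (8.68 RPKM). In the 3 columns at 24 h the median gene was at 12.4 to 14.3 RPKM, above the 8.68 to 11.2 RPKM of the earlier columns. In BF 12 h, 10 of 11 pancreatic acinar transcripts had their highest value of all columns, led by the protease CTRB1 at 84.7 RPKM against at most 0.57 RPKM elsewhere. Counts at 4 h are also given without BA 4 h, and counts at 12 h without BF 12 h, for the interferon genes and for the lists around them.

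Type I interferons bind the receptor IFNAR, whose kinases phosphorylate STAT2. STAT2 and IRF9 are subunits of ISGF3, which binds the interferon-stimulated response element (ISRE) in the promoters of antiviral genes. IRF7, itself an interferon target, amplifies production of type I interferon, and IRF1 is induced mainly by interferon gamma through GAS elements. MX1 and MX2 encode dynamin-like GTPases that block viral replication, IFIT2 and IFIT3 encode proteins with tetratricopeptide repeats that act on viral RNA and translation, and ISG15 is a ubiquitin-like modifier. In liver, hepatocytes and Kupffer cells (the resident macrophages) can both express these genes.

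Promoters of 6 of the 9 genes were held in RefSeq (rat build GRCr8, 250 bases before to 50 after the annotated start). The ISRE core, GAAANNGAAA on either strand, was found in 3.92% of 33469 rat promoters of that length, and the GAS core, TTCNNNGAA, which reads the same on both strands, in 8.87%. Among the 6 promoters, the ISRE core was found once each in those of IRF7 and IFIT3, and the GAS core once each in those of IRF1 and IRF9. STAT2 and MX1 had neither in this window. The promoters of IRF7, IFIT3 and IRF1 are printed because the first 2 belong to genes that fell after PH and carry the ISRE core, while IRF1 carries the GAS core and did not pass the test at any time. The motifs do not divide the genes by their change, since IRF9 carries the GAS core and was called lower at 12 h, and STAT2 and MX1 fell with neither core in the window. Capitals mark the motif. IRF7 lies at chr1:205799974-205800273 on the minus strand, with the ISRE core at -69 to -60 from the start.
IRF7: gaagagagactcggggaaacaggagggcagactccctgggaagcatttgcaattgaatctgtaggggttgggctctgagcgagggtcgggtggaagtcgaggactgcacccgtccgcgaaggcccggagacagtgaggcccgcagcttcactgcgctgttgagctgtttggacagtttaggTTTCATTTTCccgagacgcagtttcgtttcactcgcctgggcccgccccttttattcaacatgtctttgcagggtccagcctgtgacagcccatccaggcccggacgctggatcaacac
IFIT3 lies at chr1:241527076-241527375 on the plus strand, with the ISRE core at -44 to -35.
IFIT3: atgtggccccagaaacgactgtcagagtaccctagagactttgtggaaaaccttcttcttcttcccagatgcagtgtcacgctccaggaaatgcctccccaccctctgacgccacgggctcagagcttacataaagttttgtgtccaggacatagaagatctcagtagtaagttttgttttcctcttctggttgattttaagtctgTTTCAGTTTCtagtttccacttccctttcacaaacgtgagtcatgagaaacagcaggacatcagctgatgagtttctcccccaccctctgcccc
IRF1 lies at chr10:38417685-38417984 on the plus strand, with the GAS core at -142 to -134.
IRF1: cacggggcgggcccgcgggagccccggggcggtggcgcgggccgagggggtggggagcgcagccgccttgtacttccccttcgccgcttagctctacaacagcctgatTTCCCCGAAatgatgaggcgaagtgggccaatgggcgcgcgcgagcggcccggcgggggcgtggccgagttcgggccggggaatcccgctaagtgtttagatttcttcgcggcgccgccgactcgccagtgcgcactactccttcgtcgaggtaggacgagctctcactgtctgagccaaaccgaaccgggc
A match is a description of the sequence and was not tested for binding.

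Most interferon response genes fell in the liver after PH, 6 of the 8 tested at 4 h, where 32.4% of all genes fell, and 6 at 12 h, where 22.5% did. At 4 h, IRF7, STAT2, MX1, MX2, IFIT2 and IFIT3 were lower than at 0 h over the 3 arms, and at 12 h IRF7, IRF9, MX1, MX2, IFIT2 and IFIT3 were lower. MX2 had the largest fall on the log2(RPKM + 1) scale, from a mean of 9.80 RPKM (SD 3.55 over the 3 arms) at 0 h to 3.73 RPKM (SD 2.67) at 4 h and 1.87 RPKM (SD 0.294) at 12 h, whereas as a ratio of RPKM MX1 fell further than MX2 in Control and BA at both times. By 24 h only IFIT3 remained past the test, and IRF1 did not pass it at any time. The times were compared with limma on log2(RPKM + 1) with arm as a covariate, so that the 3 arms serve as the repeats of a time, the error is the departure from equal time courses in the arms, and a change particular to 1 arm cannot be tested. Changes from 0 h share the same 0 h columns.

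**Figure D1:**
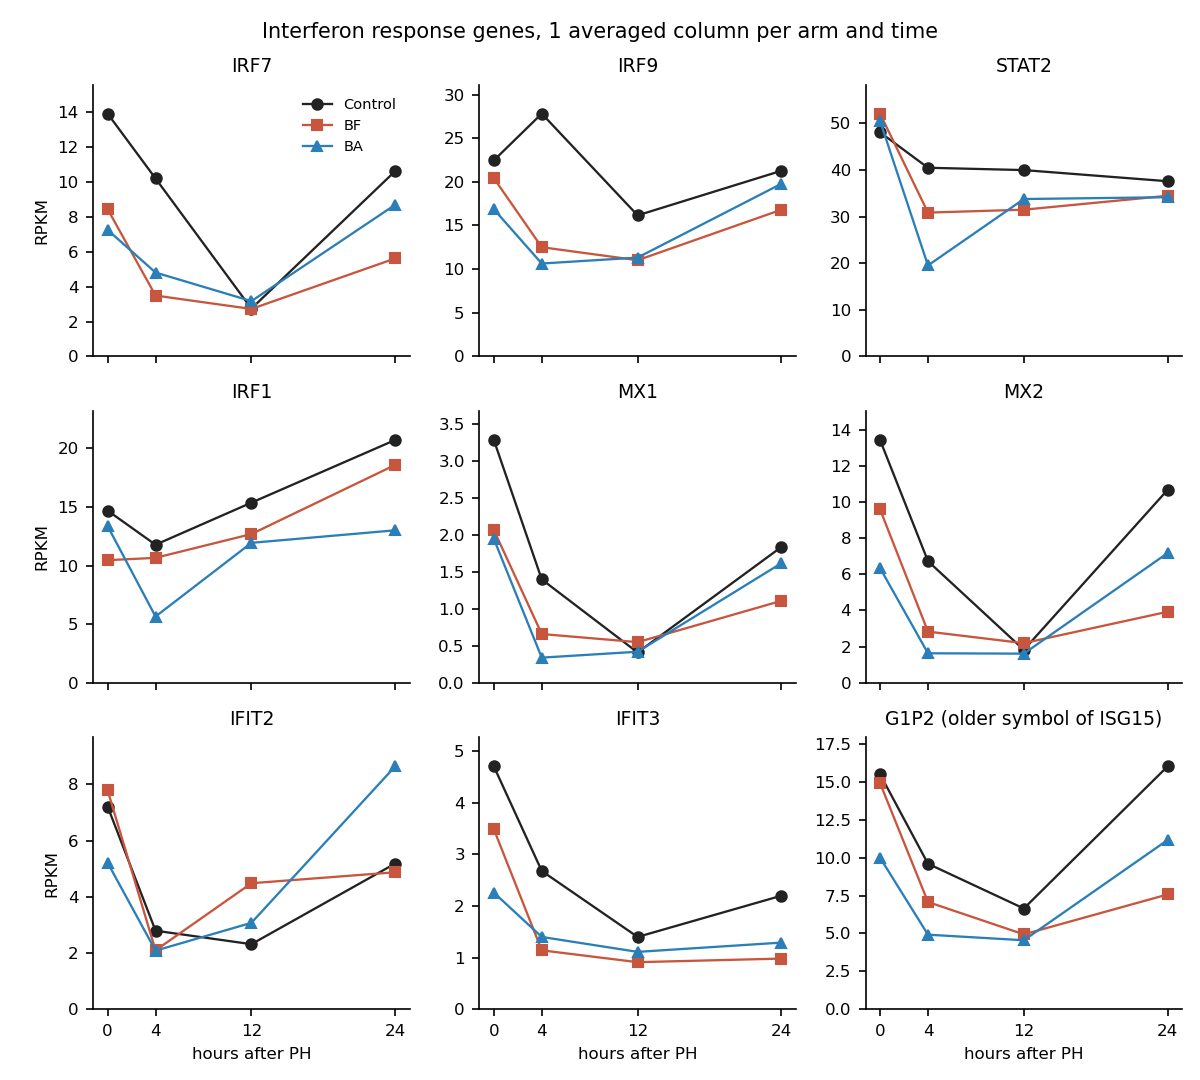
RPKM of the 8 interferon response genes and G1P2 (vertical axes, each from 0) against hours after PH (horizontal axis), with 1 point for each of the 12 columns and lines joining the points of an arm. MX2 in Control ran from 13.4 RPKM at 0 h through 6.73 and 1.82 RPKM to 10.7 RPKM at 24 h.

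Among the transcription factors, IRF7 was at 13.9, 10.2, 2.74 and 10.6 RPKM at 0, 4, 12 and 24 h in Control, at 8.45, 3.49, 2.72 and 5.62 RPKM in BF, and at 7.26, 4.81, 3.17 and 8.70 RPKM in BA. All 3 columns at 12 h lay below all 3 at 0 h, in a narrow band, while the columns at 4 and 24 h overlapped those at 0 h. On the log2(RPKM + 1) scale IRF7 fell by 0.67 ± 0.23 (SE) at 4 h (limma, adjusted p = 0.0423) and fell by 1.44 ± 0.23 at 12 h (limma, adjusted p = 0.00274). The call at 4 h was lost when any of 7 columns was left out (Control 0 h or 24 h, BF 0, 4 or 24 h, BA 4 h or 24 h), with adjusted p of 0.05 to 0.156, and also without the filter on low values (adjusted p = 0.073) or with columns brought to a common median gene (adjusted p = 0.0856). The call at 12 h was kept with each of the 12 columns left out in turn, with changes of -1.62 to -1.15.

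IRF9, the DNA-binding subunit of ISGF3, was at 22.5, 27.8, 16.2 and 21.3 RPKM at 0, 4, 12 and 24 h in Control, at 20.4, 12.5, 11.02 and 16.8 RPKM in BF, and at 16.9, 10.6, 11.3 and 19.8 RPKM in BA. At 4 h the arms went apart, with Control at its highest of the 4 times and both fistula arms below their 0 h values, a difference that has 1 column per arm and was not tested. At 12 h all 3 columns lay below all 3 at 0 h, and IRF9 fell by 0.61 ± 0.20 on the log2(RPKM + 1) scale (limma, adjusted p = 0.0481). This call was lost when any of 9 columns was left out (all but Control 4 h, BA 4 h and BA 24 h), with adjusted p of 0.0514 to 0.174, and also without the filter on low values (adjusted p = 0.0756) or with columns brought to a common median gene (adjusted p = 0.109). At 4 h the change was -0.33 ± 0.20 (limma, adjusted p = 0.213), and without Control 4 h it was -0.62 (adjusted p = 0.0101).

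STAT2, the subunit that carries the ISGF3 activation domain, had the highest level of the 8 genes, at 48.1, 40.5, 40.0 and 37.6 RPKM at 0, 4, 12 and 24 h in Control, at 52.1, 30.8, 31.5 and 34.5 RPKM in BF, and at 50.5, 19.5, 33.8 and 34.1 RPKM in BA. Every column after PH lay below every column at 0 h. The lowest value stood in BA 4 h, the column dominated by ALB. On the log2(RPKM + 1) scale STAT2 fell by 0.77 ± 0.18 at 4 h (limma, adjusted p = 0.00897), a call that was kept with each column left out in turn. The changes at 12 h (-0.51 ± 0.18, adjusted p = 0.0613) and 24 h (-0.49 ± 0.18, adjusted p = 0.0625) did not pass limma's threshold with all columns, and without BA 4 h they did, with adjusted p of 0.0104 and 0.0105. Both were also past it without Control 4 h, with adjusted p of 0.0365 and 0.0375, and the change at 24 h was past it without Control 0 h (-0.65, adjusted p = 0.048).

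IRF1 was at 14.7, 11.8, 15.4 and 20.7 RPKM at 0, 4, 12 and 24 h in Control, at 10.5, 10.7, 12.7 and 18.6 RPKM in BF, and at 13.4, 5.65, 11.9 and 13.01 RPKM in BA. At each time its columns overlapped those at 0 h. The changes on the log2(RPKM + 1) scale were -0.46 ± 0.19 at 4 h (limma, adjusted p = 0.0673), 0.06 ± 0.19 at 12 h (adjusted p = 0.841) and 0.40 ± 0.19 at 24 h (adjusted p = 0.115). IRF1 passed the test at 4 h without BF 0 h (-0.64, adjusted p = 0.0316) or BF 4 h (-0.61, adjusted p = 0.0405), and at 24 h without BA 0 h (0.62, adjusted p = 0.0242). Without BA 4 h, where IRF1 was lowest, it was not called at 4 h.

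Among the antiviral effectors, MX1 was at 3.29, 1.40, 0.41 and 1.84 RPKM at 0, 4, 12 and 24 h in Control, at 2.07, 0.66, 0.55 and 1.11 RPKM in BF, and at 1.95, 0.34, 0.42 and 1.62 RPKM in BA. Every column after PH lay below every column at 0 h. MX1 fell by 0.95 ± 0.18 at 4 h (limma, adjusted p = 0.00276) and fell by 1.22 ± 0.18 at 12 h (limma, adjusted p = 0.0017) on the log2(RPKM + 1) scale, which understates changes at such low levels. As a ratio of RPKM, the 12 h column was at 0.125 of the 0 h column in Control, 0.266 in BF and 0.215 in BA. At 24 h the change was -0.44 ± 0.18 (limma, adjusted p = 0.0787), and it passed the threshold without Control 12 h (adjusted p = 0.048).

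MX2 was at 13.4, 6.73, 1.82 and 10.7 RPKM at 0, 4, 12 and 24 h in Control, at 9.60, 2.83, 2.19 and 3.93 RPKM in BF, and at 6.35, 1.63, 1.61 and 7.18 RPKM in BA. The 12 h columns lay close together whatever the 0 h level of the arm, and all 3 were below the 0 h columns. MX2 fell by 1.28 ± 0.30 at 4 h (limma, adjusted p = 0.00779) and fell by 1.86 ± 0.30 at 12 h (limma, adjusted p = 0.0027), and was at -0.42 ± 0.30 at 24 h (adjusted p = 0.296). MX1 and MX2 are similar in sequence, and how reads shared between them were counted is not given in the sources used here, so that the separate values are uncertain.

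IFIT2 was at 7.21, 2.79, 2.31 and 5.18 RPKM at 0, 4, 12 and 24 h in Control, at 7.79, 2.09, 4.48 and 4.87 RPKM in BF, and at 5.21, 2.08, 3.07 and 8.64 RPKM in BA. It was lowest at 4 h in BF and BA but at 12 h in Control, and the columns at both times lay below all 3 at 0 h. On the log2(RPKM + 1) scale IFIT2 fell by 1.21 ± 0.25 at 4 h (limma, adjusted p = 0.00435) and fell by 0.87 ± 0.25 at 12 h (limma, adjusted p = 0.0265). The 12 h call was lost without Control 0 h, Control 12 h, BF 0 h or BA 12 h, with adjusted p of 0.0745 to 0.125. At 24 h the change was -0.12 ± 0.25 (adjusted p = 0.729), with BA 24 h above BA 0 h and the other arms below their 0 h columns.

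IFIT3 was at 4.71, 2.68, 1.40 and 2.20 RPKM at 0, 4, 12 and 24 h in Control, at 3.49, 1.14, 0.91 and 0.98 RPKM in BF, and at 2.26, 1.40, 1.11 and 1.29 RPKM in BA. The columns at 12 and 24 h lay below all 3 at 0 h. IFIT3 fell by 0.72 ± 0.15 at 4 h (limma, adjusted p = 0.00549), fell by 1.04 ± 0.15 at 12 h (adjusted p = 0.00192) and fell by 0.84 ± 0.15 at 24 h (adjusted p = 0.00385). The other 7 genes were not called at 24 h. G1P2, the row that carries the older symbol of ISG15, was at 15.5, 9.61, 6.65 and 16.1 RPKM in Control, at 14.9, 7.08, 4.94 and 7.58 RPKM in BF, and at 10.01, 4.92, 4.55 and 11.2 RPKM in BA. It fell by 0.84 ± 0.19 at 4 h (limma, adjusted p = 0.00666) and fell by 1.18 ± 0.19 at 12 h (limma, adjusted p = 0.00267), with columns at both times below all 3 at 0 h.

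**Figure D2:**
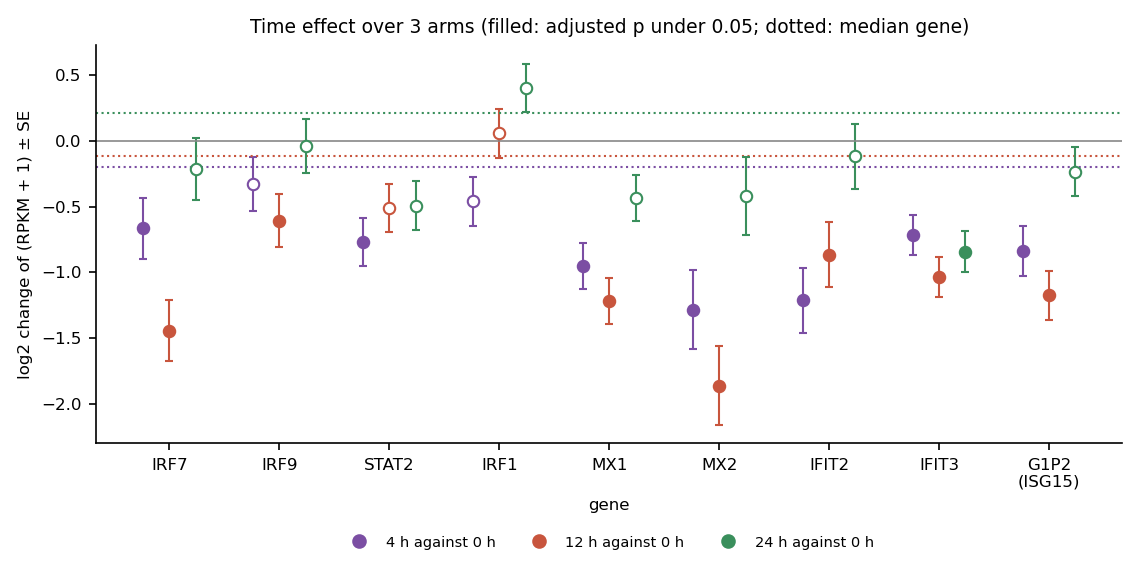
Change from 0 h in log2(RPKM + 1) by limma (vertical axis, bars are SE) for each gene (horizontal axis) at 4, 12 and 24 h, filled where the adjusted p was under 0.05, with dotted lines at the median of all 8459 genes. Of the 8 genes, 6 were filled below 0 at 4 h, 6 at 12 h and 1, IFIT3, at 24 h.

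Many genes of the liver fell after PH, and the interferon counts are read against that. Beside the shares at 4 and 12 h given above, 1 of 8 interferon response genes fell at 24 h where 5.54% of all genes tested did. None rose at any of these times, where 12.9%, 9.03% and 30.6% of all genes rose at 4, 12 and 24 h. The median change of the 8 genes was -0.74 at 4 h, -0.95 at 12 h and -0.32 at 24 h on the log2(RPKM + 1) scale, and that of all genes tested was -0.20, -0.12 and 0.21. Without BA 4 h, 5 of the 8 were called at 4 h, where 22.7% of all genes fell.

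By columns, the 3 values at 4 h lay below all 3 at 0 h for STAT2, MX1 and IFIT2, 3 of 8 genes where 33.7% of all genes did the same. At 12 h this held for 7 of 8 genes, all but IRF1, where it held for 32.5% of all genes. At 24 h it held for STAT2, MX1 and IFIT3, 3 of 8 where 9.45% of all genes did. The share at 4 h was near that of all genes, and the share at 12 h was above it.

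Within the arms each change rests on 1 pair of columns and has no test, and the folds are on the log2(RPKM + 1) scale. In Control, IFIT2 was at least 2-fold lower at 4 h (5.19% of all genes were), and at 12 h IRF7, MX1, MX2, IFIT2 and IFIT3 were (9.94%). In BF, IRF7, MX2, IFIT2 and IFIT3 were 2-fold lower at 4 h (6.92%), IRF7, MX2 and IFIT3 at 12 h (5.15%), and MX2 and IFIT3 at 24 h (1.88%). In BA, IRF1, STAT2, MX1, MX2 and IFIT2 were 2-fold lower at 4 h (13.2%), and MX1 and MX2 at 12 h (5.77%). The BA 4 h count stood in the column in which all genes together were shifted by -0.32 on that scale at the median, and with columns brought to a common median gene it was 3.

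Between 12 and 24 h, a comparison added after the values had been seen, IRF7 rose by 1.23 ± 0.23, MX2 by 1.44 ± 0.30, MX1 by 0.78 ± 0.18, IFIT2 by 0.75 ± 0.25 and IRF9 by 0.57 ± 0.20 on the log2(RPKM + 1) scale (limma, adjusted p of 0.00395, 0.00575, 0.00787, 0.0343 and 0.0471). These 5 of 8 stand beside 43.6% of all genes that rose, in a comparison where the whole distribution was shifted by 0.33 at the median. With columns brought to a common median gene, IRF7 (0.83, adjusted p = 0.039) and MX2 (1.07, adjusted p = 0.037) were still called, and the signs of IRF1, STAT2 and IFIT3 turned negative without a call. The call of IRF9 was lost without any of 9 columns (all but Control 4 h, Control 24 h and BA 4 h), with adjusted p of 0.0507 to 0.184, and that of IFIT2 without Control 12 h, Control 24 h, BA 12 h or BA 24 h, with adjusted p of 0.0627 to 0.143. The comparison shares its 12 h columns with that of 12 h against 0 h.

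The same shift bears on 24 h against 0 h, where the median of all genes was 0.21. Relative to it, IFIT3 stood at -1.06, STAT2 at -0.71, MX1 at -0.65, MX2 at -0.63 and IRF1 at 0.19. With columns brought to a common median gene, STAT2 (-0.82, adjusted p = 0.00989) and MX1 (-0.63, adjusted p = 0.027) were called lower at 24 h beside IFIT3 (-1.04, adjusted p = 0.00271). A change that missed the threshold at 24 h does not show that a gene was back at its level before PH.

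The levels of the 8 genes, which RPKM puts on a scale per length of transcript, ran in mean over the 12 columns from STAT2 (37.7 RPKM) through IRF9 (17.3), IRF1 (13.2), IRF7 (6.81), MX2 (5.67), IFIT2 (4.64) and IFIT3 (1.96) to MX1 (1.31 RPKM). STAT2 was above IRF9 in all 12 columns, IRF1 above IRF7 in 12 and IFIT2 above IFIT3 in 12. IRF9 was above IRF1 in 9 columns, and MX2 above IFIT2 in 6, so that the order of these neighbours depended on the column.

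The genes went up and down together to different degrees. Over the 12 columns, Pearson's r of log2(RPKM + 1) between members had a median of 0.67 over 28 pairs, with 0.97 for MX1 and MX2, 0.94 for IRF7 and MX2 and 0.07 for IRF1 and IFIT3. IRF1 had r of 0.53 with the mean of the 8 scaled genes, the lowest of the 8, and MX1 had the highest at 0.97. Each of the 8 is itself part of that mean, which raises its r. The 12 columns share their libraries between genes, and the time course enters every pair, so that these values are descriptions. Of 4836 genes with a range of at least 1 on the log2 scale, those most like the mean of the 8 were SLC5A6 (r = 0.96), COASY (0.96), DDX58 (0.96), RGD1305721 (0.96), PER3 (0.96), AK3 (0.95), KAT3 (0.95), NUMB (0.95), CEACAM1 (0.95) and HAGH (0.95). DDX58 encodes RIG-I, a sensor of viral RNA that is itself an interferon target. PER3 is a component of the circadian clock, and SLC5A6 and COASY serve vitamin uptake and coenzyme A synthesis. The gene most like MX1 was MX2 and the reverse, for IFIT3 it was B2M (r = 0.96) and for G1P2 it was MX2 (r = 0.97), while ENPP2 was nearest to IRF7 (0.97), EIF2C4 to IFIT2 (0.97), KIFC2 to STAT2 (0.94), POLS to IRF9 (0.92) and NDUFB10 to IRF1 (0.96).

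The rest of the pathway was read from gene lists. Of 13 interferon ligands, 4 were in the table, of which IFNA1, IFNA4 and IFNB1 were listed at 0 in every column and IFNG did not exceed 0.1 RPKM. OAS2 and EIF2AK2 were listed at 0 as well, so that a 0 here says only how the gene is listed. Of 7 genes for receptors and the JAK-STAT relay, 3 fell at 4 h, JAK1 and IFNGR2 among them, beside 32.4% of all genes. Without BA 4 h only JAK1 did, where 22.7% of all genes fell. JAK2 alone of the 7 rose at 4 h, by 0.86 ± 0.19 (limma, adjusted p = 0.00554), where 12.9% of all genes rose. At 12 h 2 fell, JAK1 among them, a share near the 22.5% of all genes. Without BF 12 h 2 fell as well, where 17.2% of all genes did. At 24 h none fell, where 5.54% of all genes did. IFNGR2 rose at 24 h, by 0.50 ± 0.13 (limma, adjusted p = 0.0181), where 30.6% of all genes rose.

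Of 5 other interferon regulatory factors, 4 fell at 4 h and 4 at 12 h, beside 32.4% and 22.5% of all genes. The count was 3 at 4 h without BA 4 h (22.7% of all genes) and 3 at 12 h without BF 12 h (17.2%). None was called at 24 h, where 5.54% of all genes fell and 30.6% rose. IRF2, a repressor at IRF1 sites, fell by 0.69 ± 0.15 at 4 h and fell by 0.87 ± 0.15 at 12 h (limma, adjusted p of 0.00532 and 0.0031), and IRF3, which induces interferon beta, fell by 0.57 ± 0.12 at 4 h (adjusted p = 0.00573). IRF8, a factor of macrophages and dendritic cells, was at -0.23 ± 0.11 at 4 h (adjusted p = 0.104) and fell by 0.47 ± 0.11 at 12 h (adjusted p = 0.0116).

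Of 7 nucleic acid sensors and adaptors, 4 fell at 4 h, beside 32.4% of all genes. Without BA 4 h 4 fell as well, beside 22.7% of all genes. At 12 h 2 fell, a share near the 22.5% of all genes, and without BF 12 h only DDX58 did (17.2% of all genes). DDX58 went from 22.9 to 29.5 RPKM before PH to 10.6 to 20.7 RPKM by 4 h, and fell by 0.74 ± 0.14 (limma, adjusted p = 0.00264). DHX58, a regulator of RIG-I, fell by 0.98 ± 0.16 at 4 h (limma, adjusted p = 0.00177), and IKBKE, a kinase upstream of IRF3 and IRF7, fell by 0.64 ± 0.13 at 4 h and rose by 0.59 ± 0.13 at 12 h (adjusted p of 0.00448 and 0.00974). MYD88, the adaptor of most Toll-like receptors, rose by 0.71 ± 0.16 at 4 h (limma, adjusted p = 0.00771). MYD88 at 4 h and IKBKE at 12 h were the only genes of the 7 that rose, where 12.9% and 9.03% of all genes did.

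Of 30 other antiviral interferon targets, 16 fell at 4 h and 1 rose, and 12 fell at 12 h and 1 rose. Among all genes, 32.4% fell and 12.9% rose at 4 h, and 22.5% fell and 9.03% rose at 12 h. Without BA 4 h, 11 fell at 4 h where 22.7% of all genes did, and without BF 12 h, 7 fell at 12 h where 17.2% of all genes did. The median change of the list was -0.46 at 4 h and -0.38 at 12 h. At 24 h 8 genes had risen and 2 fallen, near the shares of all genes that rose (30.6%) and fell (5.54%), with a median change of 0.18 beside 0.21 for all genes. IFI44 was at 8.97, 10.02 and 8.89 RPKM before PH in Control, BF and BA, at 5.04, 4.34 and 2.92 RPKM by 4 h, and then at 9.47, 8.18 and 9.10 RPKM by 24 h. It fell by 1.03 ± 0.16 at 4 h (limma, adjusted p = 0.00128) and was at -0.05 ± 0.16 at 24 h (adjusted p = 0.814). OASL2, IFI35 and TRIM14 fell at 4 h, with changes of -0.90 ± 0.14, -1.31 ± 0.23 and -1.70 ± 0.28 (limma, adjusted p of 0.00151, 0.00241 and 0.00176).

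**Figure D3:**
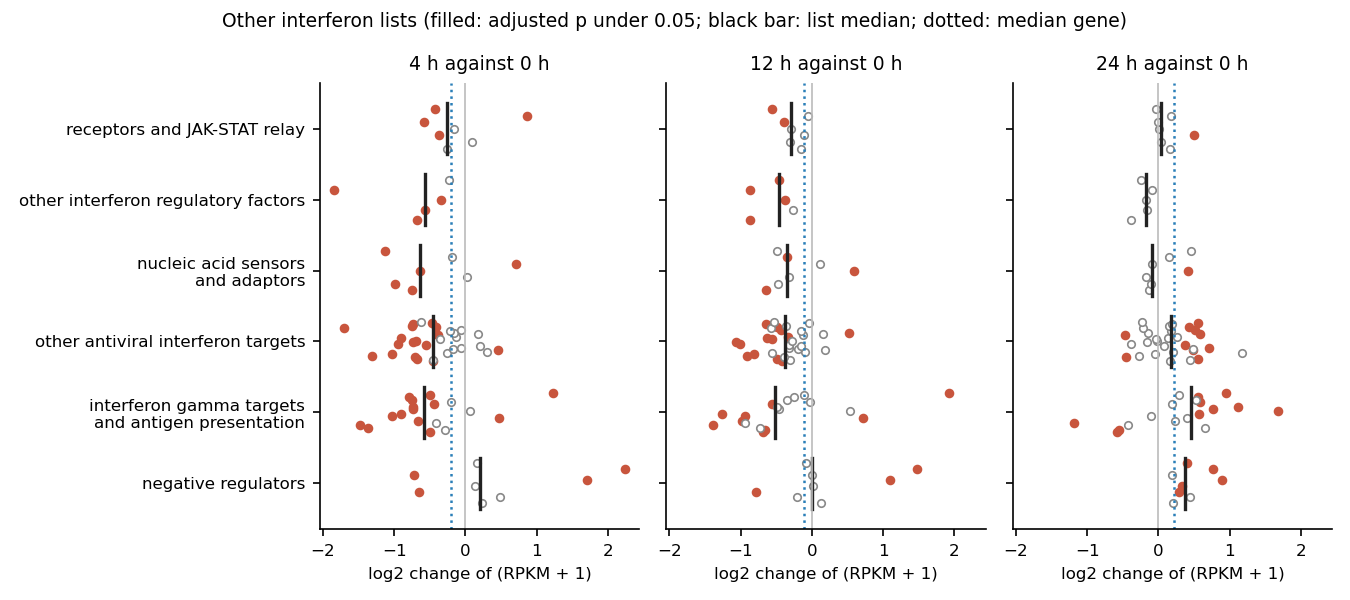
Change from 0 h in log2(RPKM + 1) by limma (horizontal axes) for each tested gene of 6 interferon lists (rows) at 4, 12 and 24 h, filled where the adjusted p was under 0.05, with black bars at the list medians and dotted lines at the median of all genes. The median of the antiviral list lay at -0.46, -0.38 and 0.18.

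Of 18 interferon gamma targets and antigen presentation genes, 12 fell and 2 rose at 4 h, 7 fell and 2 rose at 12 h, and 3 fell and 7 rose at 24 h. At these times 32.4%, 22.5% and 5.54% of all genes fell, and 12.9%, 9.03% and 30.6% rose. The counts that rose at 4, 12 and 24 h were near these shares of all genes. Without BA 4 h, 7 fell and 1 rose at 4 h (22.7% and 10.6% of all genes). Without BF 12 h the counts at 12 h were 7 and 2 (17.2% and 6.66% of all genes). PSMB10, a catalytic subunit of the immunoproteasome, went from 20.0 to 28.6 RPKM before PH to 59.4 to 92.7 RPKM by 24 h, a rise by 1.68 ± 0.19 (limma, adjusted p = 0.000403). IRGM and GBP2, both interferon-induced GTPases, changed by -1.26 ± 0.18 and -0.99 ± 0.16 at 12 h (limma, adjusted p of 0.0015 and 0.00261), and at 24 h IRGM was above 0 h by 0.57 ± 0.18 (adjusted p = 0.0327). B2M, the light chain of class I molecules, was among the 3 that fell at 24 h. The 2 genes that rose at 4 and 12 h were WARS and ICAM1, a tRNA synthetase and an adhesion molecule, and without BA 4 h ICAM1 was not called at 4 h. WARS rose by 1.23 ± 0.23 and 1.92 ± 0.23 (limma, adjusted p of 0.00274 and 0.000842).

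Of 8 negative regulators, SOCS3 and PTPN2 rose at 4 and 12 h, beside 12.9% and 9.03% of all genes. SOCS3, a feedback inhibitor of JAK-STAT signalling that is itself a STAT3 target, was at 11.3, 12.2 and 17.4 RPKM before PH in Control, BF and BA, and 4 h later stood at 65.1, 53.7 and 85.1 RPKM, a rise by 2.23 ± 0.22 (limma, adjusted p = 0.000314). PTPN2, a phosphatase that acts on JAK kinases, rose by 1.71 ± 0.20 at 4 h and 1.103 ± 0.20 at 12 h (limma, adjusted p of 0.00048 and 0.00426). PIAS1 and PTPN6 fell at 4 h, beside 32.4% of all genes, with changes of -0.65 ± 0.09 and -0.72 ± 0.14 (limma, adjusted p of 0.000904 and 0.00364). At 12 h PIAS1 alone of the 8 fell, with a change of -0.78 ± 0.09 (limma, adjusted p = 0.000841), beside 22.5% of all genes. These counts at 4 and 12 h were the same without BA 4 h and without BF 12 h. Of all genes, 22.7% fell and 10.6% rose at 4 h without BA 4 h, and 17.2% fell and 6.66% rose at 12 h without BF 12 h. At 24 h 5 of the 8 had risen, where 30.6% of all genes had.

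Markers of other liver cells moved in the same columns. In these bulk samples fewer cells of a type and less RNA per cell cannot be told apart. The summed RPKM of 12 macrophage and Kupffer cell markers was 506 to 582 at 0 h, 481 to 523 at 4 h, 407 to 415 at 12 h and 503 to 577 at 24 h. Of these 12 genes, 3 fell at 4 h (CD5L, EMR1 and VSIG4), below the 32.4% of all genes, and 6 at 12 h, above the 22.5% of all genes. Without BA 4 h, 2 fell at 4 h (22.7% of all genes did), and without BF 12 h, 4 fell at 12 h (17.2%). EMR1, a macrophage surface receptor, had means of 8.86, 5.78, 4.04 and 6.03 RPKM at the 4 times. The list was not uniform. At 4 h the means of CD163, CLEC4F, C1QB and C1QC were 15.4, 108.8, 76.5 and 87.9 RPKM. These were above their means at 0 h (12.3, 100.7, 72.7 and 86.25 RPKM) without a call, while the means of the other markers were lower. The sum of 13 T and NK cell markers was 18.4 to 22.7 RPKM at 0 h, 11.4 to 14.0 at 4 h, 10.5 to 11.7 at 12 h and 11.8 to 14.8 at 24 h, mostly CD4, which rat macrophages also carry. The defining T cell genes CD3D, CD3E and CD3G were at most 0.86, 0.88 and 0.93 RPKM.

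The sum of 8 neutrophil markers went the other way, from 9.55 to 30.2 RPKM at 0 h to 54.1 to 66.7 RPKM at 12 h, carried by S100A8 and S100A9. FCGR3A, an Fc receptor that macrophages and NK cells also carry, fell at 4 and 12 h, with means of 7.02, 3.44, 3.49 and 6.66 RPKM at the 4 times, while MPO and ELANE were at most 0.07 and 0.03 RPKM. Of the plasmacytoid dendritic cell markers, SIGLECH and CLEC4C were not found by name, and BST2, which makes up most of that list's sum, is an interferon target as well. The 3 B cell markers found summed to at most 2.05 RPKM. The sum of 4 endothelial markers was 55.9 to 59.7 RPKM at 0 h and 44.3 to 45.8 RPKM at 12 h, and that of 4 cholangiocyte markers 15.7 to 17.0 and 10.8 to 19.9 RPKM. The 8 hepatocyte markers summed to 115500 to 342100 RPKM at 4 h and 73470 to 80440 RPKM at 12 h, against 122600 to 139100 RPKM at 0 h. Most of this sum was ALB, with means of 92740, 154800 and 42700 RPKM at 0, 4 and 12 h. None of the 8 was called lower at 4 or 12 h, where 32.4% and 22.5% of all genes fell. At each of these times 1 of the 8 was called higher, where 12.9% and 9.03% of all genes rose. The part of these cell types in the interferon gene changes was not tested. Without BF 12 h, the column with pancreatic transcripts, 5 of the 8 interferon genes were called at 12 h, IRF9 being lost. In that setting 17.2% of all genes fell.

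**Figure D4:**
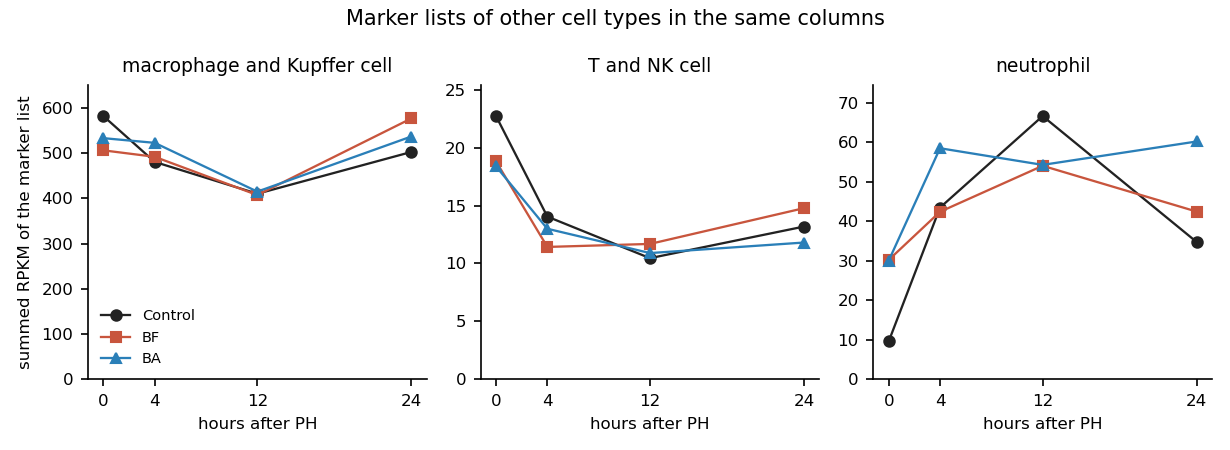
Summed RPKM (vertical axes, from 0) of 12 macrophage and Kupffer cell, 13 T and NK cell and 8 neutrophil markers against hours after PH (horizontal axes), 1 point per column with lines joining an arm. The macrophage sum was lowest at 12 h in every arm (407 to 415 RPKM) and the neutrophil sum was lowest at 0 h (9.55 to 30.2 RPKM).

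The arms were compared over the 4 times, which then serve as the repeats of an arm. None of the 8 interferon response genes passed limma's threshold in BF against Control (0.804% of all genes did, in either direction), BA against Control (0.0709%) or BF against BA (0.0118%). At an unadjusted p under 0.05, 4 genes (IRF7, IRF9, MX2 and IFIT3) were lower in BF than in Control, where 21.9% of all genes differed at that level, and 6 (IRF1, IRF7, IRF9, MX1, MX2 and IFIT3) were lower in BA than in Control, where 22.7% did. No gene of the 8 reached it in BF against BA. Estimates were below 0 for 7 of the 8 in BF against Control and in BA against Control, beside 72.9% and 78.4% of all genes. Both comparisons use the same Control columns.

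IRF7 averaged 9.38 RPKM over the 4 times in Control, 5.07 in BF and 5.99 in BA. Its difference in BF was -0.70 ± 0.20 on the log2(RPKM + 1) scale (limma, adjusted p = 0.124), and this passed the threshold without Control 12 h (-0.92, adjusted p = 0.049). IRF7 was lower in BF than in Control at 0, 4 and 24 h and all but equal at 12 h (2.72 against 2.74 RPKM). In BA it was lower than in Control at 3 of 4 times. IFIT3 averaged 2.75 RPKM in Control, 1.63 in BF and 1.52 in BA, lower than Control at all 4 times in both arms, with differences of -0.54 ± 0.13 (limma, adjusted p = 0.0936) and -0.52 ± 0.13 (adjusted p = 0.102). MX2 averaged 8.17, 4.64 and 4.19 RPKM in Control, BF and BA, and its differences from Control were -0.63 ± 0.26 (adjusted p = 0.201) and -0.79 ± 0.26 (adjusted p = 0.148). IFIT2 did not go below Control on average, at 4.37, 4.81 and 4.75 RPKM.

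**Figure D5:**
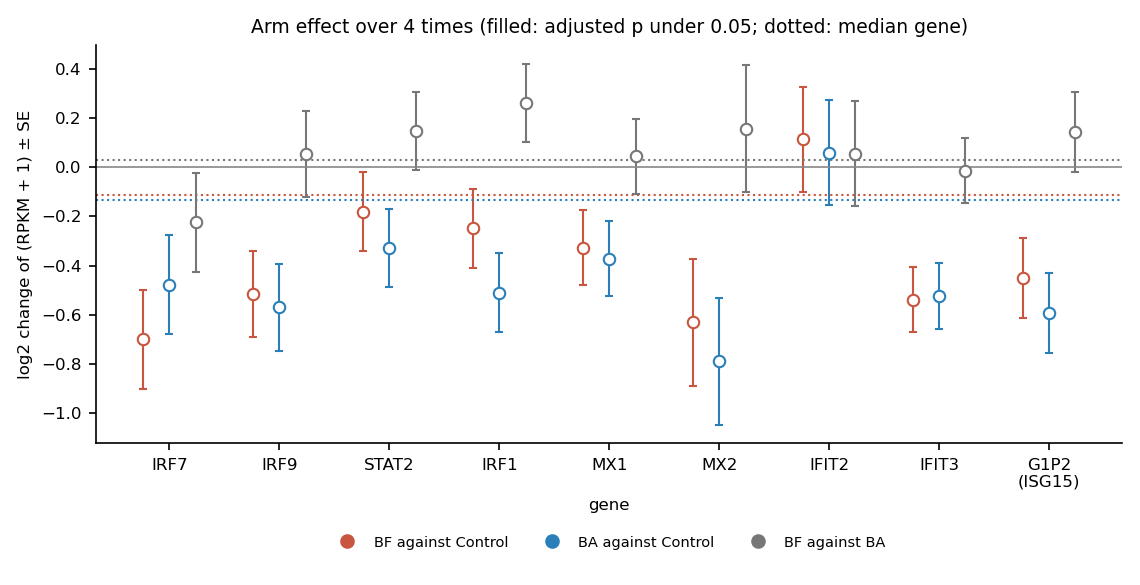
Difference between arms in log2(RPKM + 1) over the 4 times by limma (vertical axis, bars are SE) for each gene (horizontal axis), with dotted lines at the median of all genes, where a filled symbol would mark an adjusted p under 0.05. No symbol is filled, and IFIT2 alone has estimates above 0 against Control (0.11 and 0.06).

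Column by column, most 2-fold differences from Control on the log2(RPKM + 1) scale were seen at 4 h. There IRF7, IRF9 and MX2 were at least 2-fold lower in BF than in Control (3.16% of all genes were), and IRF9, STAT2 and MX2 were in BA (5.26%). As a plain ratio of RPKM, MX1 and IFIT3 also passed 2-fold in BF (4.84% of all genes did), and IRF1, IRF7 and MX1 in BA (8.94%). With columns brought to a common median gene, on the log2(RPKM + 1) scale, only IRF7 was 2-fold lower in BF (2.65% of all genes were). In BA, IRF9 and MX2 were (3.29%). At 12 h none of the 8 was 2-fold lower in either arm on any of these scales, and IRF7 was at 2.72 to 3.17 RPKM in all 3 arms. At 24 h MX2 was 2-fold lower in BF than in Control on the log2(RPKM + 1) scale (1.31%), at 3.93 against 10.7 RPKM, and as a ratio of RPKM IFIT3 was as well (1.76%). Before PH, at 0 h, none of the 8 was 2-fold lower on the log2(RPKM + 1) scale, where 2.16% of all genes were in BF and 2.15% in BA. As a ratio of RPKM the levels of MX2 and IFIT3 in BA were 0.472 and 0.480 of those in Control (2.78% of all genes passed 2-fold). That of IRF7 in BA was 0.521. Between BF and BA no gene of the 8 differed 2-fold at any time. On the log2(RPKM + 1) scale, 64 to 197 of all 8459 genes were 2-fold lower in BF than in BA at these times, and 36 to 202 were higher. Of the 75 tested genes of the 6 other interferon lists, none was called in any comparison of arms. These single columns have no replicate check.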

How the data were processed

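The authors deposited 1 table of RPKM values for 12 columns, each combining 2 sequencing runs. By the study's text CASAVA wrote the reads as fastq and RPKM were averaged over the rats of a column. The processing notes also name Bowtie 0.12.2 and the builds mm8 and rn4, without roles, and the annotation, strand setting and weight of each run are not given in the sources used here. Of 14692 genes, 1 had no value, 2303 were at 0 in every column and 8459 had a mean of at least 1 RPKM and were tested. Values were taken as log2(RPKM + 1) and fitted with limma 3.58.1 (R 4.3.3; arm plus time, eBayes with trend, 6 residual degrees of freedom), two-sided, with Benjamini-Hochberg adjustment over the genes tested and a threshold of 0.05, after tests on simulated data. The p-values set a time or arm effect against the departure from additivity among columns, not against the spread between rats. In simulated data where 200 genes were changed by 0.5 on the log2 scale, 16% of them were called at 4 h against 0 h. In BF against Control 37.5% were, so that most changes of this size were missed. At a change of 1 the shares were 76% and 83.5%. Single pairs of columns had no test and were described by a 2-fold rule. The genes and lists were chosen with earlier results of these data known. From each other list, up to 4 genes with the smallest adjusted p were named, except that some are not reported here. Other genes were named as the 10 most like the members, the nearest to each member, or as markers. Others, such as ICAM1, B2M and the listing at 0 of OAS2 and EIF2AK2, were named after their values were seen. Added after the values were seen were lists without BA 4 h or BF 12 h and other scales for pairs of arms. The other alternatives were a pseudocount of 0.1, no filter, rescaled columns, no trend and each column left out.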

Additional observations from a re-analysis of the deposited data

How the results depend on the processing

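No paired analysis was possible because each arm and time has 1 column, with no replicate numbers that match rats between columns. The fit of arm plus time itself compares times within arms. Of the calls at 12 h, those of IRF7, MX1, MX2 and IFIT3 were kept under every alternative run. With columns brought to a common median gene, 3 of the 8 genes were called at 24 h against 0 h in place of 1. Under the same setting 2 rather than 5 were called at 24 h against 12 h, a comparison chosen after the values were seen, where calls over all genes went from 3836 to 1565 and the signs of IRF1 (-0.10), STAT2 (-0.44) and IFIT3 (-0.071) turned. It also gave 1 gene at least 2-fold lower in Control 24 h against 0 h in place of 0, and 3 in BA 4 h against 0 h in place of 5. Without the filter on low values 3 genes were called at 24 h against 12 h, and the calls over all genes were 2 in BF against Control in place of 68 and 0 in BA against Control in place of 6. A pseudocount of 0.1 RPKM gave 2 genes at least 2-fold lower in Control at 4 h in place of 1, and 1 at 24 h in place of 0.

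With each column left out in turn, calls over all genes ranged from 1245 to 2956 at 12 h, from 1670 to 3392 at 24 h, from 2264 to 4270 at 24 h against 12 h, from 2 to 77 in BF against Control, from 0 to 28 in BA against Control and from 1 to 3 in BF against BA. Over all genes, the count fell by more than 1.5 times without Control 0 h, Control 12 h or BF 0 h at 12 h, and without Control 0 h, Control 24 h, BF 0 h or BF 24 h at 24 h. It did so without Control 12 h, Control 24 h or BF 24 h at 24 h against 12 h. The 8 genes gave 1 to 2 calls at 24 h (2 without Control 0, 4 or 12 h, BA 0 h or BA 4 h), 3 to 5 at 24 h against 12 h (3 without Control 12 h, BA 12 h or BA 24 h) and 0 to 1 in BF against Control (1 without Control 12 h). Estimates that changed sign were those of IRF1 at 12 h (-0.12 to 0.27), IRF9 (-0.21 to 0.11) and IFIT2 (-0.42 to 0.094) at 24 h, STAT2 at 24 h against 12 h (-0.07 to 0.094), and IFIT2 in BF (-0.05 to 0.27) and BA (-0.17 to 0.21) against Control, none of which had passed the test. The cause was not tested. The read depth is unknown, so that no counting error can be given for the low values of MX1 and IFIT3.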
